A study of Homo sapiens with 6 samples.

Results

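Oxidative phosphorylation (OXPHOS) takes place in the inner membrane of mitochondria. Complexes I, III and IV pump protons while electrons pass from NADH to oxygen, complex II feeds electrons from succinate into the same chain, and complex V, the ATP synthase, uses the proton gradient to make ATP. Most of their subunits are encoded in the nucleus and a small set by the mitochondrial genome, so complexes I, III, IV and V need products of both genomes. The genes described here were those of the authors' merged count table whose symbols carry the subunit names of the nuclear set, namely NDUFA, NDUFB, NDUFC, NDUFS or NDUFV with a number, SDHA to SDHD, UQCR, CYC1, COX4 to COX8 and ATP5. Of the 24635 gene identifiers with counts in that table, 84 met this rule. By symbol there were 37 for complex I, 4 for complex II, 10 for complex III, 14 for complex IV and 19 for complex V. The symbol alone set the complex, so *NDUFA4* was counted with complex I by its name and not by its place in the chain. Of the 84 genes, 81 had at least 10 reads over all libraries and were tested among 23345 genes. The remaining 3 were isoforms of complex IV, *COX6A2* with 1 read, and *COX7A1* and *COX7B2* with 0 reads.

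The libraries came from HEK293T, a human embryonic kidney line that carries the SV40 large T antigen, grown in DMEM with 10% FBS. There were 3 libraries from cells with a control hairpin (sh-control) and 3 from cells with a hairpin against *RREB1*, a zinc finger transcription factor (sh-*RREB1*). Hairpins were delivered by pLKO.1 lentiviral vectors, and nothing in the labels says that the 3 libraries of a group came from separate infections or cultures. All p-values therefore measure the spread between these libraries, which may be technical. Strand-specific libraries were made from total RNA, and reads were counted on the strand of each gene.

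Reads on genes numbered from 23362197 to 33044061 in sh-control and from 12257054 to 26145878 in sh-*RREB1*. In sh-*RREB1* replicate 3, 52.1% of aligned reads had more than one position and were left uncounted, a share that was 3.66% to 7.63% in each of the other 5 libraries. The target gene was checked first. *RREB1* itself measured 27.1, 25.2 and 26.6 CPM (the read count of a gene scaled to library size, with TMM factors) in sh-control replicates 1, 2 and 3 and 23.7, 24.6 and 23.1 CPM in sh-*RREB1*. The log2 fold change of -0.14 (SE 0.128) did not pass the test (edgeR quasi-likelihood test, adjusted p = 0.485), although every sh-*RREB1* library was below every sh-control library. With the GC content and length offset described below it was at -0.36 (edgeR adjusted p = 0.0534). With the replicate number as a block as well it was at -0.37 (adjusted p = 0.011). Deviations from the group mean correlated between libraries of replicate number 1 (0.50) and of number 2 (0.43), and not of number 3 (-0.28). The labels do not say that equal numbers are pairs, so that block is given as an alternative only. The second group is therefore called by its label. Among markers of HEK293 cells, *LIN28B*, *VIM*, *CDH2*, *NEFL*, *NEFM*, *KRT8* and *KRT18* were detected in every library, *PAX2* had 33 reads in total, and *LIN28A* had 0. The summed level of this list was 784 to 820 CPM in sh-control and 1060 to 1114 CPM in sh-*RREB1*. Of its 8 genes tested, 3 rose (*NEFL*, *VIM* and *PAX2*), beside 10.8% of all genes tested. Of the fibroblast markers, *COL1A1* rose, and *COL1A2* was at 3.93 CPM in sh-*RREB1* replicate 2 and at or below 0.0793 CPM in the other libraries. The summed level of the 3 fibroblast markers was 0.348 to 0.779 CPM in sh-control and 1.03 to 7.22 CPM in sh-*RREB1*. Of 4 markers of striated muscle, the 2 tested summed to 0.0870 to 0.294 CPM in sh-control and 0.238 to 0.535 CPM in sh-*RREB1*. *MYH7* was at 0, and every sh-*RREB1* library was above sh-control for *ACTA1* (log2 fold change 1.70, edgeR adjusted p = 0.0641). In the same order of groups, the 1 tested of 2 liver markers was at 0.478 to 0.515 CPM and 0 to 0.322 CPM. Sums of the 2 endothelial markers were 0.217 to 0.368 CPM and 0.159 to 0.497 CPM. The 1 tested of 3 blood markers was at 0.565 to 1.15 CPM and 0.555 to 1.29 CPM. The part of these differences in the results below was not tested.

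The nuclear-encoded OXPHOS genes had a median change close to 0, and single subunits moved in both directions. In bulk RNA a change in the makeup of the cells and a change in RNA per cell cannot be told apart. The median log2 fold change of the 81 genes was -0.02, beside 0.01 over all genes tested. At an adjusted p below 0.05 (edgeR, Benjamini-Hochberg adjustment over all genes), 9 genes rose in sh-*RREB1* and 10 fell, and 62 did not pass. Of all genes tested, 10.8% rose and 8.81% fell at this threshold, so the share of the OXPHOS genes was near the background in both directions. Scaling by library size alone gave 11 higher and 2 lower OXPHOS genes, and upper quartile scaling gave 9 and 15. Only *ATP5D* passed the stricter threshold of an adjusted p below 0.01 with a fold above 2, which 2.71% of all genes passed as higher and 0.698% as lower. The sh-*RREB1* libraries lay above every sh-control library in 17 OXPHOS genes, beside 21.1% of all genes, and below every one in 19, beside 20% of all genes. The groups overlapped in the remaining 45.

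Most genes that rose belonged to complex I, which held 37 of the 81 genes tested. Of these 37, 8 rose and 3 fell, beside 10.8% and 8.81% of all genes, with a median log2 fold change of 0.07. With the GC content and length offset described below, 9 complex I genes passed as higher and 3 as lower, beside 10.4% and 11.7% of all genes. Of the 8 genes, 5 were among the 9. None of the 4 genes of complex II passed the test in either direction, and their median was -0.02. In complex III 0 of 10 rose and 3 fell (median -0.18), and in complex IV 0 of 11 rose and 3 fell (median -0.27). In complex V 1 of 19 rose and 1 fell (median -0.08). These counts were not tested against each other. Genes that rose were low to intermediate in level and changed by a large factor, whereas genes that fell were abundant and changed by less. The mean level ran from 1.07 to 59.4 CPM in the 9 genes that rose, and from 51.3 to 324 CPM in the 10 that fell. The median log2 fold change was 1.53 in the first set and -0.43 in the second, as chosen by the test.

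**Figure D1:**
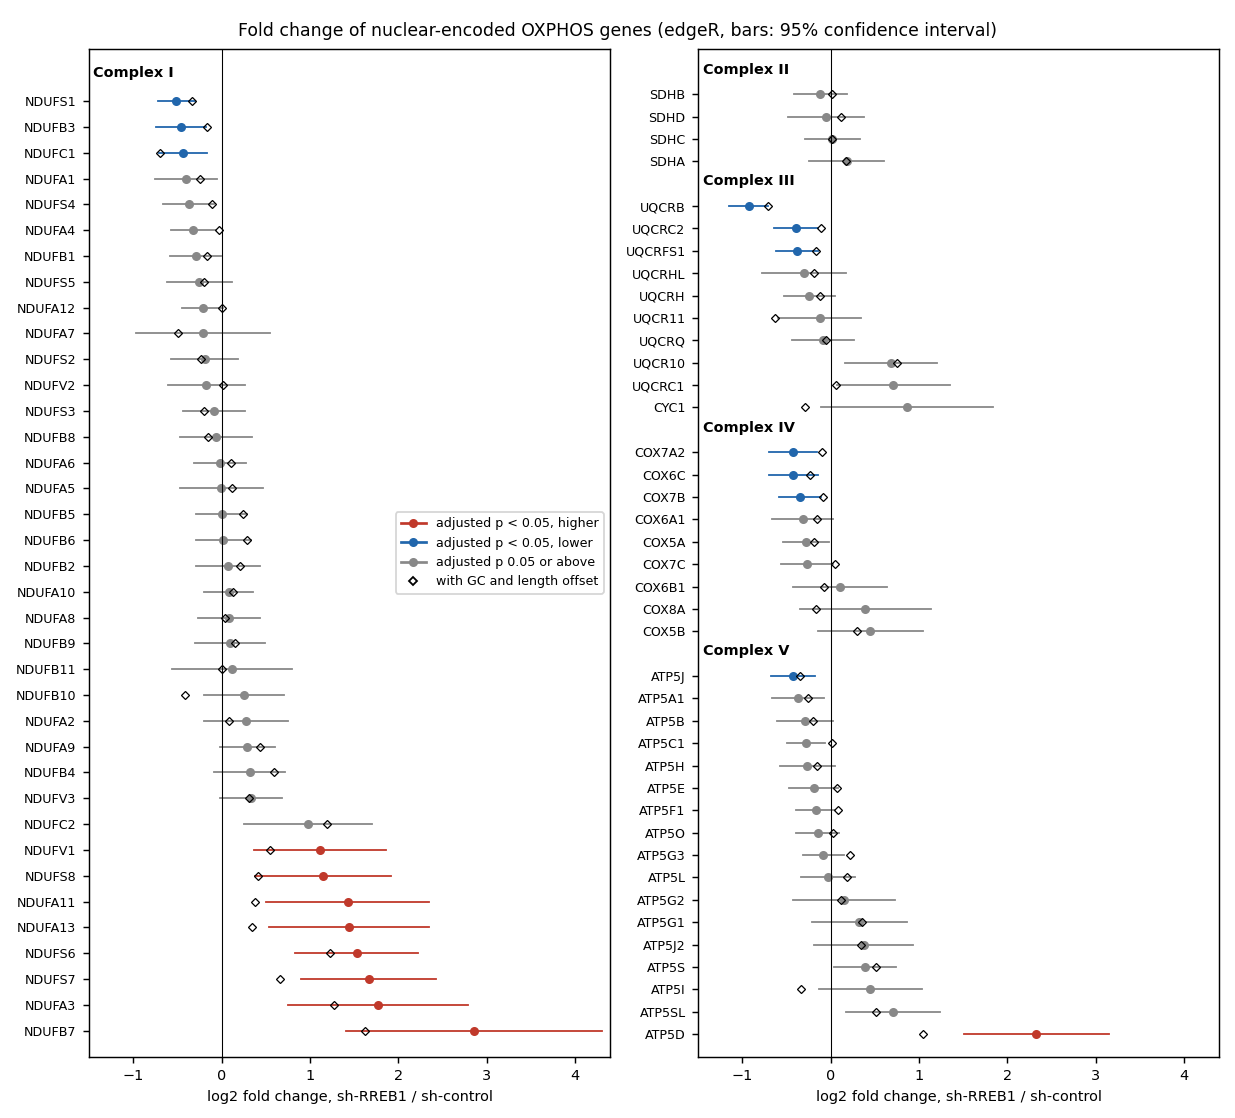
Log2 fold change (x axis, sh-*RREB1* over sh-control) of the 77 OXPHOS genes with at least 100 reads, by complex, each bar being the 95% confidence interval of the edgeR fit over 3 libraries per group. Red marks the 9 genes that rose, blue the 10 that fell, grey the others, and open diamonds give the estimate with the GC content and length offset. The red genes all sit in complex I apart from *ATP5D*.

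GC content of the exons followed the fold change, and it did so across the whole transcriptome. Over the 76 OXPHOS genes with a mean of at least 1 CPM, Spearman's rho between the log2 fold change and GC content was 0.64, and over 14481 genes with that level it was 0.59. These are correlations across genes that share the same 6 libraries and are given as descriptions. GC content was 54.8% to 65.0% in the genes that rose (median 61.4%), 38.7% to 53.5% in those that fell (median 42.1%), and had a median of 47.0% in those that did not pass. The log2 fold change also ran against the log2 mean level (rho -0.62 over the same 76 genes). A fit in which each library's trend on GC content and exonic length was removed as an offset was therefore read beside the counts as they stand, and there rho with GC content was 0.12.

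With that offset, 13 OXPHOS genes passed an adjusted p of 0.05 as higher and 7 as lower, beside 10.4% and 11.7% of all genes. At the stricter threshold 5 were higher (*ATP5D*, *NDUFB7*, *NDUFA3*, *NDUFS6* and *NDUFC2*, the last 4 of complex I), beside 1.82% of all genes, and 0 were lower, beside 1.2%. The median log2 fold change was 0.03. Of the 9 genes that rose without the offset 6 also passed as higher with it, and of the 10 that fell 4 also passed as lower. Those 6 were *NDUFB7*, *NDUFA3*, *NDUFS6*, *NDUFS7*, *NDUFV1* and *ATP5D*, and those 4 were *UQCRB*, *NDUFS1*, *NDUFC1* and *ATP5J*. *NDUFB10*, an accessory subunit of complex I with a GC content of 58.6%, was at 0.26 without the offset (adjusted p = 0.406) and at -0.42 with it (edgeR adjusted p = 0.00290), so its direction turned. Because the groups differ in their trends, the offset also removes any difference that follows GC content.

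**Figure D2:**
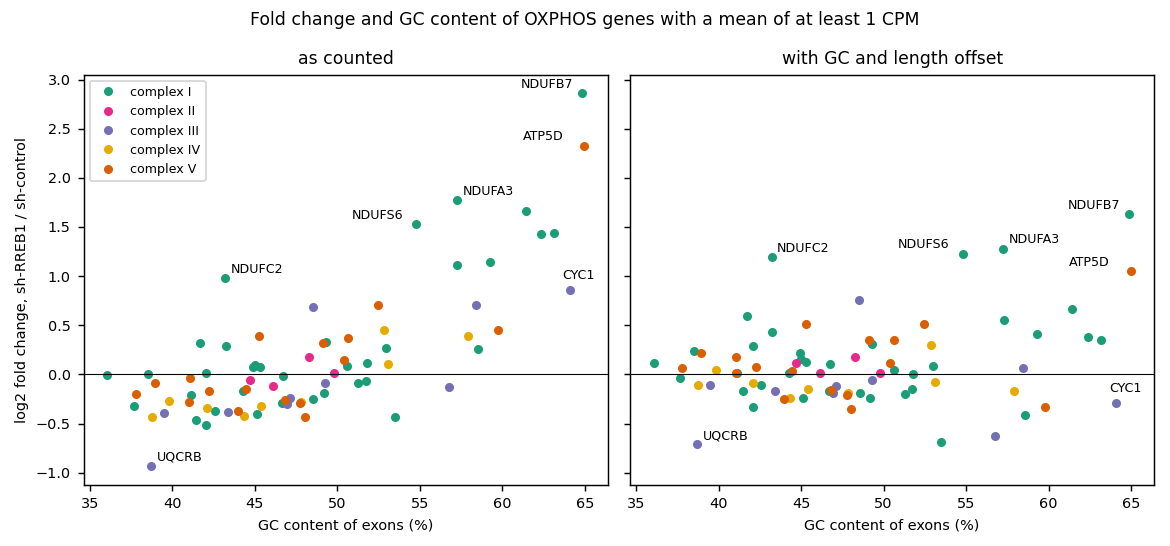
Log2 fold change (y axis) against GC content of the exons in percent (x axis) for the 76 OXPHOS genes with a mean of at least 1 CPM, coloured by complex, as counted (left) and with the GC content and length offset (right). The slope seen on the left (rho 0.64) is nearly flat on the right (rho 0.12), while *NDUFB7*, *ATP5D*, *NDUFA3*, *NDUFS6* and *NDUFC2* (0.98 on the left) lie above 1 on the right and *UQCRB* is lowest in both.

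Sh-control replicate 1 stood apart from the other sh-control libraries. It held the lowest of the 3 sh-control values in 61 of 81 OXPHOS genes (75.3%), compared to 43.2% of all genes tested. Lists of related genes were alike in this, with 12 of 16 tricarboxylic acid cycle enzymes (75%), 32 of 48 assembly factors (66.7%) and 9 of 15 regulators of respiratory genes (60%). It was lowest in 9 of the 9 genes that rose, in 6 of the 10 that fell and in 46 of the 62 that did not pass. In the genes that rose, the median log2 difference of this library from the average of replicates 2 and 3 was -1.35 (prior of 0.5 CPM), compared to -0.16 in those that fell and -0.03 over 14507 genes with a mean of at least 1 CPM. Without this library, 9 OXPHOS genes passed an adjusted p of 0.05 as higher and 20 as lower, and 6 passed the stricter threshold. All 19 genes of the full comparison were among those 29. When any other library was left out fewer passed, namely 6, 11 and 4 in turn for the sh-*RREB1* replicates, and 2 and 12 for sh-control replicates 2 and 3. The count of all genes past the stricter threshold moved too, from 795 to 1120 without sh-control replicate 1. It was 25, 136 and 8 in turn without the sh-*RREB1* replicates, and 9 and 384 without sh-control replicates 2 and 3. The 2 genes left without sh-control replicate 2 were *UQCRB* and *ATP5D*, which passed with any of the 6 libraries left out.

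The subunit promoters are known for sites of nuclear respiratory factor 1 (NRF1) and of GA-binding protein (GABP, an ETS factor). RefSeq promoter windows (GRCh38.p14, 250 bases before to 50 after the transcript start) were matched for 65 of the 84 genes. On either strand, the palindromic NRF1 core TGCGCA was present in 32.3% of the OXPHOS genes with a window, compared to 9.76% of 27305 genes. The GABP site CCGGAAG, searched on both strands as CTTCCGG too, was present in 29.2% compared to 12.2%. The C-rich letters CCCCACC or GGTGGGG, taken from the RAS-response element that RREB1 binds, were present in 26.2% compared to 21.2%. Matches of different words were counted separately where they overlapped. Each share is a description of letters in these windows. Among the genes that rose, 8 had a window, and 3 held the NRF1 core, 2 the GABP site and 1 the C-rich word. Among the genes that fell, 8 had a window, and 0, 2 and 1 held them.

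The NRF1 cores of the genes that rose are shown with their flanks, to let the sites be compared by eye. Each line holds 30 bases on the strand of the gene, 5′ to 3′, with the core in capitals, from chr5:1801348-1801377 for *NDUFS6*, chr19:1383712-1383741 for *NDUFS7* and chr19:54102672-54102701 for *NDUFA3* (all plus strand). The cores begin 47, 183 and 171 bases before the RefSeq start.
NDUFS6: cgccagaagccgTGCGCAtgcgttagcgct
NDUFS7: gcggcccccacgTGCGCActccgatgacct
NDUFA3: gttctgcgcgagTGCGCAcgcgcaggctcc

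GABP sites stood before genes of both directions. In the lines below the first gene, *NDUFA13*, rose and the other genes, *NDUFS1* and *ATP5J*, fell. They lie at chr19:19516195-19516224 (plus strand), chr2:206159584-206159613 and chr21:25735067-25735096 (both minus strand), with the site in capitals, which in *NDUFS1* reads from the other strand.
NDUFA13: taagtcacttccgcccgggaCCGGAAGtgt
NDUFS1: aggctggggccaCTTCCGGcggaactgcgg
ATP5J: gtgccaggggacCCGGAAGcacttaccctc

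The C-rich word stood before *NDUFV1*, which rose, at chr11:67606700-67606729 (plus strand), and before *NDUFC1*, which fell, at chr4:139302539-139302568 (minus strand), among other matches in the windows of *NDUFC1*. For the gene with the largest fold change of the set, *NDUFB7*, the 250 bases before the start are printed whole, from chr19:14572067-14572316 on the minus strand (GC content 62.8%). Its only match to the 3 words is a GABP site, in capitals, which begins 24 bases before the start.
NDUFV1: gaaagagcgagcGGTGGGGacagccaccgc
NDUFC1: cctcgcaatgggCCCCACCtcccgagaaga
NDUFB7: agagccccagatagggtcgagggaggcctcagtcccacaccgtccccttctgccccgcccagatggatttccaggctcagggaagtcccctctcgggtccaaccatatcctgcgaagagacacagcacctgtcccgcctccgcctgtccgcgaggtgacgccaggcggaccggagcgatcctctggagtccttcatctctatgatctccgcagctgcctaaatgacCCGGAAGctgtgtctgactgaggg

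Complex I, NADH:ubiquinone oxidoreductase, holds a catalytic core, to which NDUFS1, NDUFS7, NDUFS8 and NDUFV1 belong, and a shell of accessory subunits. Genes of both kinds rose and fell. Sentences on genes beyond the naming rule given in the processing section were chosen after their values were seen. *NDUFS1* (ENSG00000023228, chromosome 2, 206114817 to 206159509 on GRCh38) encodes the largest core subunit, which carries iron-sulfur clusters. It measured 375, 399.6 and 369 CPM in the sh-control libraries and 269, 271 and 263 CPM in sh-*RREB1*. Every sh-*RREB1* library was below every sh-control library. It fell, with a log2 fold change of -0.51 (SE 0.0929, edgeR adjusted p = 0.00886), and with the offset it was at -0.33 (adjusted p = 0.0184). The adjusted p was 0.0572 without sh-*RREB1* replicate 3 and 0.0505 without sh-control replicate 2.

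The other core subunits that passed the test rose. *NDUFS7* (chromosome 19, 1383527 to 1395589), which holds the last iron-sulfur cluster before ubiquinone, measured 1.39, 3.31 and 3.96 CPM in the sh-control libraries and 8.65, 11.0 and 8.0 CPM in sh-*RREB1*. The groups did not overlap, and the lowest value was that of sh-control replicate 1. Its log2 fold change was 1.66 (SE 0.336, edgeR adjusted p = 0.0122), compared to 0.66 with the offset (adjusted p = 0.00721). *NDUFV1*, the flavoprotein that takes electrons from NADH, was at 18.2, 44.5 and 49.8 CPM and 69.8, 101 and 73.1 CPM in the same order. It rose by 1.11 on the log2 scale (edgeR adjusted p = 0.0448), and by 0.55 with the offset (adjusted p = 0.0232). *NDUFS8* was at 7.70, 18.9 and 22.9 CPM and 31.6, 43.2 and 35.2 CPM. It rose by 1.15 (edgeR adjusted p = 0.0455) and was at 0.41 with the offset, where it did not pass (adjusted p = 0.0580). In all of these genes sh-control replicate 1 was far below the other sh-control libraries.

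Among the accessory subunits, *NDUFB7* (chromosome 19, 14566078 to 14572066), which lies on the intermembrane space side of the membrane arm, had the largest fold change of all OXPHOS genes. It measured 0.174, 2.68 and 3.71 CPM in the sh-control libraries, from 4, 73 and 119 reads, and 14.4, 20.6 and 13.8 CPM in sh-*RREB1*, from 359, 539 and 174 reads. The log2 fold change was 2.86 (SE 0.639, edgeR adjusted p = 0.0173), and 1.63 with the offset (adjusted p = 0.00322). Left without any 1 library the log2 fold change stayed between 2.31 and 3.43, while the adjusted p passed 0.05 in 3 of 6 such fits. *NDUFS6* (chromosome 5, 1801407 to 1816048), a zinc-binding subunit, measured 7.65, 16.4 and 20.3 CPM in the sh-control libraries and 38.1, 49.2 and 41.1 CPM in sh-*RREB1*. The lowest sh-*RREB1* library was above the highest sh-control library. It rose by 1.53 on the log2 scale (SE 0.309, edgeR adjusted p = 0.0123), and by 1.23 with the offset (adjusted p = 0.000476). *NDUFA3* was at 2.83, 10.6 and 13.7 CPM and 28.4, 36.8 and 27.9 CPM and rose by 1.77 (edgeR adjusted p = 0.0273, with the offset 1.28, adjusted p = 0.00414).

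Another 2 GC-rich accessory subunits of chromosome 19 lost their call with the offset. *NDUFA13* was at 0.217, 0.625 and 0.841 CPM and 1.33, 1.83 and 1.59 CPM, and *NDUFA11* at 1.0, 3.68 and 4.05 CPM and 7.29, 9.01 and 7.45 CPM. They rose by 1.44 and 1.43 (edgeR adjusted p = 0.0362 and 0.0395), compared to 0.35 and 0.38 with the offset (adjusted p = 0.407 and 0.172). Of the exonic bases of *NDUFA13*, 21.0% overlap other genes on the same strand, where reads are left uncounted, so its level is uncertain. Of the 9 OXPHOS genes that rose, 6 lie on chromosome 19 (*NDUFB7*, *NDUFA3*, *NDUFS7*, *NDUFA13*, *NDUFA11* and *ATP5D*), as does *UQCRFS1*, which fell. Another 5 OXPHOS genes tested on this chromosome did not pass (*NDUFA7*, *UQCR11*, *COX6B1*, *COX6B2* and *ATP5SL*). Of all 1372 genes tested on chromosome 19, 23.0% rose.

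In the same shell 2 subunits fell. *NDUFB3* measured 88.8, 115 and 96.6 CPM in the sh-control libraries and 71.3, 77.6 and 69.1 CPM in sh-*RREB1*. It fell by 0.46 on the log2 scale (edgeR adjusted p = 0.0345), and was at -0.17 with the offset (adjusted p = 0.378). *NDUFC1* was at 57.4, 62.8 and 56.9 CPM and 45.1, 40.0 and 45.9 CPM, with no overlap. It fell by 0.44 on the log2 scale (edgeR adjusted p = 0.0339), and its value with the offset was larger in size, -0.69 (adjusted p = 0.00568). *NDUFC2*, also of the membrane arm, did not follow the groups. It measured 15.6, 15.5 and 14.3 CPM in the sh-control libraries and 37.0, 14.6 and 38.3 CPM in sh-*RREB1*, so that replicate 2 was at the level of sh-control. Its log2 fold change of 0.98 did not pass without the offset (edgeR adjusted p = 0.0615) and passed with it (1.19, adjusted p = 0.00784), and 18.6% of its exonic bases are shared with the readthrough gene *NDUFC2-KCTD14*. The remaining 26 of the 37 complex I genes, *NDUFC2* among them, did not pass without the offset.

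**Figure D3:**
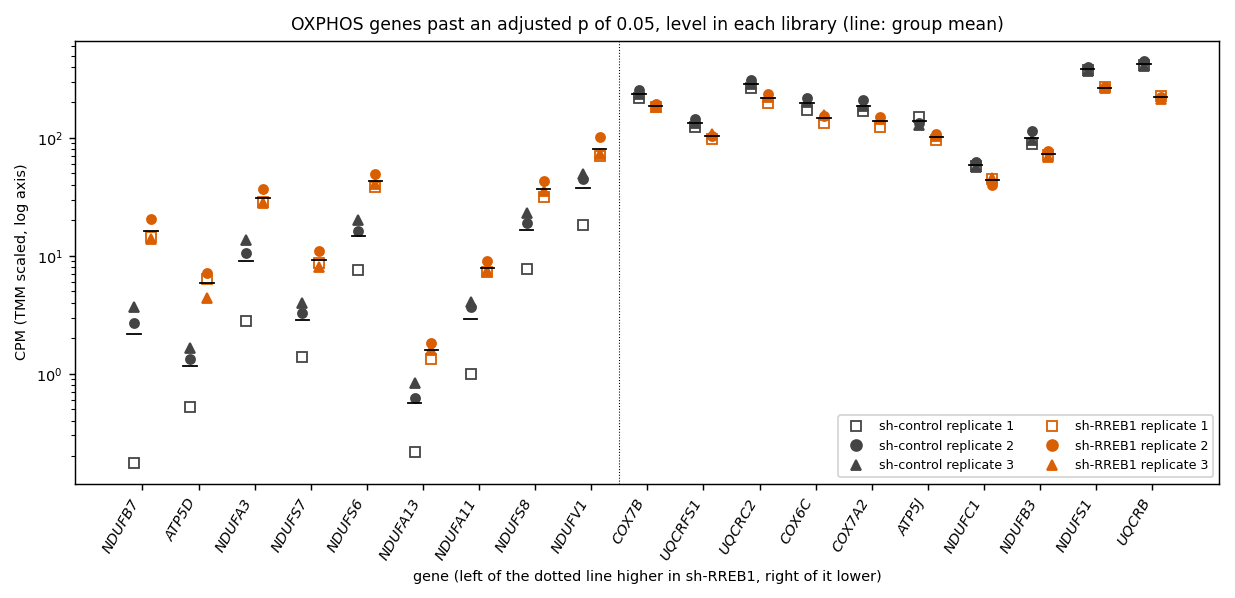
Level of the 19 OXPHOS genes past an adjusted p of 0.05 in each of the 6 libraries, in TMM-scaled CPM on a log axis, with a short line at each group mean. In the 9 genes left of the dotted line sh-control replicate 1 (open grey square) is the lowest point, and in the 10 genes right of it the 3 libraries of each group lie close together.

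Complex II, succinate dehydrogenase, is encoded wholly in the nucleus and is also an enzyme of the tricarboxylic acid cycle. *SDHA*, the flavoprotein, measured 72.3, 104 and 113 CPM in the sh-control libraries and 93.1, 130.4 and 105 CPM in sh-*RREB1*. The iron-sulfur subunit *SDHB* was at 127, 159 and 150.5 CPM and 120.0, 153 and 129 CPM. The membrane anchors were at 135, 103 and 111 CPM and 104, 125 and 125 CPM for *SDHC*, and at 84.2, 76.0 and 69.5 CPM and 85.1, 52.3 and 84.0 CPM for *SDHD*. The groups overlapped in all 4. The 95% intervals of the log2 fold change were -0.24 to 0.61 for *SDHA*, -0.42 to 0.18 for *SDHB*, -0.29 to 0.33 for *SDHC* and -0.48 to 0.37 for *SDHD*. Changes of the size seen in *UQCRB* lay outside these intervals. Reads counted on pseudogenes of *SDHA* came to 31.5% of its own, so its level is uncertain.

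Complex III, the cytochrome bc1 complex, held the fall with the smallest p of the family. *UQCRB* (ENSG00000156467, chromosome 8, 96222947 to 96235546) encodes a subunit that binds ubiquinone. It measured 412, 450.4 and 408 CPM in the sh-control libraries 1, 2 and 3, and 228, 222 and 216 CPM in sh-*RREB1*. The 3 libraries of each group lay within a narrow range and far from the other group. The log2 fold change was -0.93 (SE 0.0965, 95% interval -1.15 to -0.71, edgeR adjusted p = 0.00189). With the offset it was -0.71 (adjusted p = 0.00124), and over the 6 fits that each left out a library it ran from -0.98 to -0.91, with adjusted p from 0.000647 to 0.0245.

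Another 2 complex III genes fell by less. *UQCRC2*, a core protein of the matrix side, measured 266, 309 and 287 CPM in the sh-control libraries and 199, 234 and 222 CPM in sh-*RREB1*. *UQCRFS1*, the Rieske iron-sulfur protein, was at 124, 146 and 133 CPM and 98.3, 104 and 107 CPM. Their log2 fold changes were -0.40 and -0.38 (edgeR adjusted p = 0.0349 and 0.0373). With the offset they were -0.11 and -0.17 and did not pass (adjusted p = 0.632 and 0.232). *UQCRH*, the hinge protein, was at 233, 323 and 286 CPM and 235, 239 and 238 CPM and did not pass (log2 difference -0.24, edgeR adjusted p = 0.221). Its intronless copy *UQCRHL*, with which it could share reads, was at 15.5, 26.9 and 21.5 CPM and 16.1, 19.2 and 16.6 CPM and did not pass (adjusted p = 0.351).

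The remaining complex III genes lay on both sides of 0 without passing. *CYC1*, cytochrome c1 (GC content 64.1%), measured 17.0, 56.4 and 69.2 CPM in the sh-control libraries and 66.9, 113 and 80.0 CPM in sh-*RREB1*, and its log2 fold change, 0.86 (edgeR adjusted p = 0.190), was -0.29 with the offset (adjusted p = 0.251). *UQCRC1* was at 51.6, 109 and 122 CPM and 128, 184 and 149.7 CPM (0.71, edgeR adjusted p = 0.113, and 0.061 with the offset). *UQCR11* (GC content 56.8%) was at 17.6, 28.4 and 27.5 CPM and 22.5, 25.4 and 19.5 CPM. It did not pass (-0.12 on the log2 scale, adjusted p = 0.722 in edgeR) and was at -0.63 with the offset, where it passed as lower (adjusted p = 0.00202). Of its exonic bases, 11.0% overlap another gene on the same strand. *UQCR10*, whose GC content of 48.5% is close to the median of the family, was at 49.0, 88.3 and 92.9 CPM and 111, 145 and 114 CPM. All sh-*RREB1* values of *UQCR10* were above those of sh-control, and its log2 fold change was 0.68 without the offset (edgeR adjusted p = 0.0686) and 0.76 with it (adjusted p = 0.00946).

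Complex IV, cytochrome c oxidase, is built around subunits of the mitochondrial genome, and its nuclear-encoded subunits surround that core, several of them as tissue-specific isoforms. Of these, 3 small subunits fell. *COX7A2* measured 169, 208 and 188 CPM in the sh-control libraries and 125, 150.3 and 144 CPM in sh-*RREB1*. *COX6C* was at 172, 218 and 204 CPM and 134, 153 and 155 CPM, and *COX7B* at 216, 257 and 236 CPM and 183, 193 and 182 CPM. In each of the 3 the highest sh-*RREB1* library was below the lowest sh-control library. Their log2 fold changes were -0.43, -0.42 and -0.35 (edgeR adjusted p = 0.0377, 0.0419 and 0.0475). With the offset they were -0.10, -0.24 and -0.091, and none of the 3 passed (adjusted p = 0.701, 0.146 and 0.583).

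Of each pair of complex IV isoforms, the ubiquitous one carried the reads. *COX6A1* measured 60.3, 91.0 and 71.2 CPM in the sh-control libraries and 57.8, 59.7 and 60.9 CPM in sh-*RREB1*, beside 1 read of the muscle form *COX6A2*. *COX7A1*, the heart and muscle form, and *COX7B2* had 0 reads, which allows up to 3 reads per library (counting error only). *COX6B1* was at 77.2, 143 and 143 CPM and 110.2, 154 and 127 CPM and the testis form *COX6B2* had 10 reads in all. *COX8A* was at 22.9, 64.9 and 62.4 CPM and 58.2, 66.9 and 72.3 CPM, with 35.4% of its exonic bases shared with another gene, and *COX8C* had 16 reads. None of these isoforms passed the test (edgeR adjusted p = 0.181 for *COX6A1*, 0.794 for *COX6B1*, 0.363 for *COX6B2*, 0.447 for *COX8A* and 0.996 for *COX8C*). *COX7C*, the complex IV subunit highest per exonic length, was at 342, 461 and 439 CPM and 328, 354 and 349 CPM (-0.27, adjusted p = 0.173).

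Complex V, the ATP synthase, joins a membrane rotor to a catalytic head. Its single call was *ATP5D* (now *ATP5F1D*, ENSG00000099624, chromosome 19, 1241746 to 1244825), which encodes the delta subunit of the central stalk. It measured 0.522, 1.32 and 1.65 CPM in the sh-control libraries, from 12, 36 and 53 reads, and 6.36, 7.10 and 4.36 CPM in sh-*RREB1*, from 158, 186 and 55 reads. The groups did not overlap. The log2 fold change was 2.33 (SE 0.363, 95% interval 1.51 to 3.15, edgeR adjusted p = 0.00543). With the offset it was 1.05 (adjusted p = 0.00242), less than 1.98, the lowest value with a library left out. *ATP5D* had the highest GC content of the 76 genes above 1 CPM, 65.0%.

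*ATP5J* (now *ATP5PF*), coupling factor 6 of the peripheral stalk, was the complex V gene that fell. It measured 151, 134 and 128 CPM in the sh-control libraries and 95.8, 107 and 104 CPM in sh-*RREB1*, with a log2 fold change of -0.43 (SE 0.110, edgeR adjusted p = 0.0274), and -0.35 with the offset (adjusted p = 0.0193). Here sh-control replicate 1 was the highest of its group. The catalytic head genes *ATP5B* and *ATP5A1* did not pass, nor did *ATP5C1*. For *ATP5C1* and *ATP5A1* every sh-*RREB1* library was below every sh-control library, however. *ATP5B* (now *ATP5F1B*, the beta subunit) was at 1029, 1238 and 1170 CPM and 785, 1092 and 934 CPM (-0.29, edgeR adjusted p = 0.175). *ATP5C1* (now *ATP5F1C*, the gamma subunit) was at 278, 299 and 276 CPM and 222, 246 and 235 CPM, a log2 fold change of -0.28 (adjusted p = 0.0758) that was 0.019 with the offset. *ATP5A1*, the alpha subunit, was at 649, 824 and 770.5 CPM and 508, 649 and 581 CPM (-0.37, adjusted p = 0.0810).

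The c ring of the rotor is one protein encoded by 3 genes, *ATP5G1*, *ATP5G2* and *ATP5G3*, whose mature products are identical. *ATP5G1* measured 57.3, 102 and 102 CPM in the sh-control libraries and 85.0, 132 and 109 CPM in sh-*RREB1*. *ATP5G2* was at 108, 217 and 215 CPM and 159.7, 228 and 211 CPM, and *ATP5G3* at 219, 235 and 204 CPM and 198, 212 and 210.2 CPM. None of the 3 passed (edgeR adjusted p = 0.383, 0.728 and 0.612). Sh-control replicate 1 was the lowest library for *ATP5G1* and *ATP5G2* and not for *ATP5G3*, which has the lowest GC content of the 3, 39.0% compared to 49.1% and 50.4%. Of the genes that the rule took in by name alone, *ATP5S* and *ATP5SL*, which are no subunits of the enzyme, did not pass (log2 fold change 0.39 and 0.70, edgeR adjusted p = 0.110 and 0.0672) and passed with the offset (0.52 and 0.52, adjusted p = 0.0119 and 0.0161). The readthrough gene *ATP5J2-PTCD1*, 87.9% of whose exonic bases overlap other genes, was at or below 0.201 CPM in every library.

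Levels of different subunits were compared per exonic length, as CPM per kilobase of the gene's exons. Subunits that are present in equal copy number in a complex spanned a wide range. In complex I, means over libraries ran from 0.396 CPM per kilobase for *NDUFA13*, 0.603 for *NDUFA7* and 0.812 for *NDUFS7* to 462 for *NDUFA1*. Of the exonic bases of *NDUFA13* and *NDUFA7*, 21.0% and 32.5% overlap other genes on the same strand. *NDUFB8*, with an overlap of 33.8%, was at 10.5 CPM per kilobase. GC content was 63.1% in *NDUFA13*, 54.2% in *NDUFA7* and 61.4% in *NDUFS7*, beside 45.1% in *NDUFA1*. The part of such overlap and of GC content in these levels was not tested. The highest levels of the family were those of *ATP5B*, 512 ± 47.6 (sh-control) and 419 ± 68.4 (sh-*RREB1*), and of *NDUFA1*, 526 ± 98.9 and 399 ± 42.2 (mean ± SD, n = 3, CPM per kilobase). These neighbours did not differ beyond their spread. *UQCRH* with 209 ± 33.7 and 177 ± 1.32 and *COX7C* with 210.1 ± 32.2 and 174 ± 7.09 CPM per kilobase led complexes III and IV, and their ranges overlapped as well. In complex II the order was *SDHC* (61.6), *SDHB* (57.2), *SDHD* (26.9) and *SDHA* (11.8 CPM per kilobase). *SDHC* and *SDHB* did not differ beyond their spread. Spearman's rho between log2 level per kilobase and GC content was -0.20 over the 76 genes. Annotated exonic length includes exons that these cells may not use, which lowers the value of a gene with long rare exons.

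**Figure D4:**
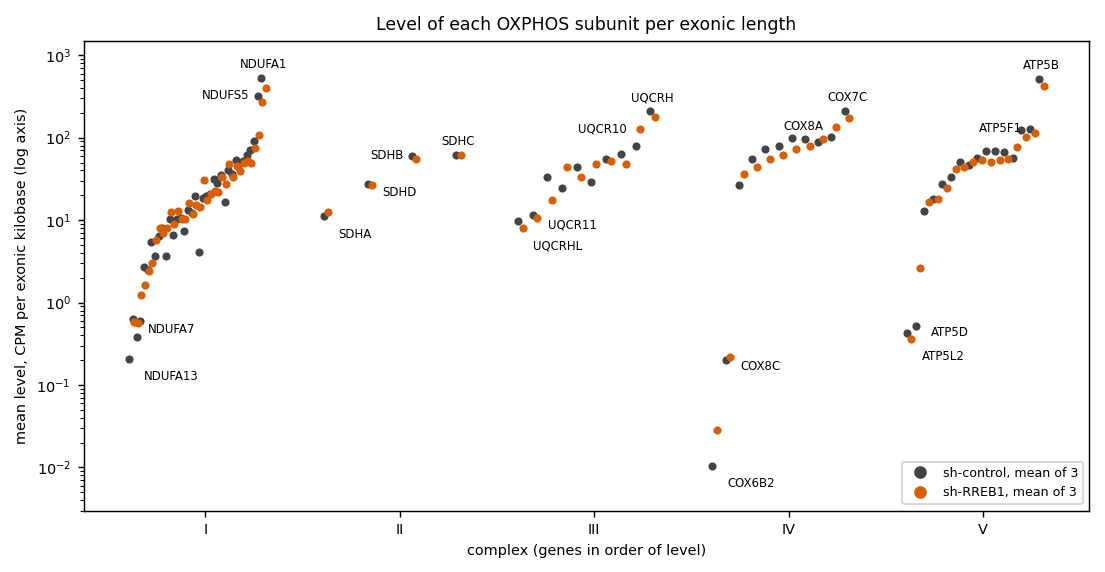
Level of the 78 OXPHOS subunits tested, in CPM per exonic kilobase on a log axis, as the mean of 3 libraries in each group, by complex and in order of level. *NDUFA1* (462 CPM per kilobase over all libraries) and *ATP5B* (465) are the highest, *ATP5D* shows the widest gap between groups in complex V, and the minor isoforms *COX6B2* and *COX8C* lie far below the other subunits of complex IV.

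The sum over all 84 OXPHOS genes was 8813, 11163 and 10584 CPM in sh-control replicates 1, 2 and 3 and 8432, 9922 and 9137 CPM in sh-*RREB1*. The summed levels of the groups overlapped, with sh-control replicate 1 the lowest of its group. The 13 messenger RNAs of the mitochondrial genome summed to 9008, 6644 and 6049 CPM in sh-control and to 6706, 6550 and 6601 CPM in sh-*RREB1*. Of the 13, 0 passed an adjusted p of 0.05 in edgeR, and 0 had an unadjusted p below 0.05. With the offset 2 passed as higher, beside 10.4% of all genes. In that set sh-control replicate 1 was the lowest of its group for 1 of 13 genes only, *MT-ND6*.

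Subunits and partners that the naming rule left out were read from the same fit. *COX4I1*, the ubiquitous form of subunit 4 of complex IV, measured 67.4, 132 and 154 CPM in the sh-control libraries and 152, 218 and 168 CPM in sh-*RREB1* and did not pass (log2 fold change 0.61, edgeR adjusted p = 0.152), and *COX4I2* had 0 reads. *NDUFAB1*, the acyl carrier protein of complex I, was at 99.7, 113 and 104 CPM and 84.2, 89.0 and 84.9 CPM (adjusted p = 0.0768). The carrier *CYCS*, cytochrome c, was at 268, 267 and 251 CPM and 406, 210.1 and 345 CPM (adjusted p = 0.365), with replicates 1 and 3 of sh-*RREB1* above all sh-control libraries and replicate 2 below them. *COX7A2L*, a factor of supercomplex assembly, had an adjusted p of 0.989. *NDUFA4L2*, a hypoxia-responsive relative of *NDUFA4*, rose in the fit (edgeR adjusted p = 0.0153) from 0, 1 and 0 reads in sh-control to 11, 5 and 4 reads in sh-*RREB1*, too few to give a fold.

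Assembly factors build the complexes without being part of them. Of 48 tested, 5 rose and 2 fell, with a median log2 fold change of 0.14 beside 0.01 over all genes. The shares over all genes tested were 10.8% and 8.81%. With the offset 13 assembly factors passed as higher and 5 as lower, beside 10.4% and 11.7% of all genes. *UQCC3*, an assembly factor of complex III, was the one that passed the stricter threshold. It measured 2.22, 3.24 and 3.71 CPM in the sh-control libraries and 8.69, 10.8 and 9.03 CPM in sh-*RREB1*, with no overlap (log2 fold change 1.63, SE 0.225, edgeR adjusted p = 0.00391), and was at 1.29 with the offset (adjusted p = 8.84e-05). The 2 that fell, *NDUFAF1* (-0.79, adjusted p = 0.00646), which acts on complex I, and *SCO1* (-0.55, adjusted p = 0.00931), a copper chaperone of complex IV, kept their calls with the offset (-0.70 and -0.44).

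Of 15 regulators of respiratory genes tested, 4 rose and 2 fell (median -0.05), beside 10.8% and 8.81% of all genes. With the offset 1 passed as higher and 1 as lower, beside 10.4% and 11.7%. *HCFC1*, a co-regulator that works with GABP and other factors, passed the stricter threshold. It measured 13.7, 20.7 and 21.6 CPM in the sh-control libraries and 39.8, 40.9 and 35.0 CPM in sh-*RREB1* (log2 fold change 1.05, edgeR adjusted p = 0.00869). With the offset it was at 0.00053 (adjusted p = 0.999). *GABPB1* and *GABPB2*, the partner subunits of GABP, were the 2 that fell (-0.43 and -0.54, adjusted p = 0.0397 and 0.0262). With the offset *GABPB2* passed (-0.44, adjusted p = 0.0111) and *GABPB1* did not (-0.18, adjusted p = 0.181). The 16 enzymes of the tricarboxylic acid cycle and pyruvate dehydrogenase supply the chain with electrons. Of these, 2 rose (among them *MDH2*, log2 fold change 0.83) and 5 fell (median -0.22), beside 10.8% and 8.81% of all genes. With the offset 3 passed in each direction, beside 10.4% of all genes as higher and 11.7% as lower. Among those that fell were *PDHX* (-0.59, edgeR adjusted p = 0.00915) and *PDHB* (-0.51, adjusted p = 0.0155).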

How the data were processed

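RNA of 6 HEK293T libraries, 3 sh-control and 3 sh-*RREB1* by their labels, was analysed. STAR (version 2.4.2a) was run by the authors on hg38 with Gencode version 25, and they deposited raw counts per gene and strand, with a merged table. Sense-strand counts of the library tables were used. Where identifiers shared a symbol the most abundant was kept (55871 in all), genes under 10 reads in total were dropped, and 23345 were tested with edgeR 4.0.16 (quasi-likelihood, TMM, condition only) in R 4.3.3. The study used DESeq2, here an alternative (1.42.0). Reads without a gene stayed out of library sizes. They made up 19.2% to 33.1% of aligned reads. Depth ran from 12257054 to 33044061 reads on genes, and the closest libraries (sh-control 2 and 3) differed by more than sampling noise (chi-square per degree of freedom 5.16), so all were counted.

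Gencode version 44 (GRCh38) gave positions, exonic lengths and GC content. Each library's trend on GC content and length (natural splines, 5 degrees of freedom) was the offset. On simulated counts of this comparison over 22899 genes, 99% of genes changed by a log2 fold change of 1.5 were called, and 100% of those changed by 3, with 4 unchanged genes called. In the measured counts *NDUFB7*, *NDUFA3* and *NDUFS7*, with log2 fold changes of 2.86, 1.77 and 1.66, did not pass the stricter threshold. Whether these rates hold for the measured libraries was not tested. Intervals are at 95%.

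Genes, lists and tests were chosen with earlier results of these data known. The naming rule took *RREB1*, every OXPHOS gene called, the 3 smallest p and the highest level per length in complexes I, III, IV and V, complex II whole, isoform groups, members that are no subunits, 6 related genes outside the symbols, and genes called in the other lists. Columns of the merged table for sh-*RREB1* carry other numbers than the labels, so they were used only as a group. Alternatives were other scalings, filters, strands, tables and thresholds, DESeq2, the offset, the replicate number as a block, and each library left out. Protein sequences and ChIP-seq were not used here. The values of some genes of the other lists are not reported here.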

Additional observations from a re-analysis of the deposited data

Results flagged for a closer look

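Reads on the strand opposite to *NDUFB11*, an accessory subunit of complex I, lie outside the counts used for the comparisons. The sh-control libraries had 20, 20 and 27 such reads and the sh-*RREB1* libraries 88, 97 and 37, which is 0.815 ± 0.071 CPM and 3.39 ± 0.41 CPM (mean ± SD, n = 3), a ratio of 4.16. All sh-*RREB1* libraries were above all sh-control libraries, while the sense-strand level of *NDUFB11* did not pass the test (edgeR adjusted p = 0.821). Over all 84 OXPHOS genes, the opposite strand held 0.451% to 0.559% of the reads on both strands in sh-control. In sh-*RREB1* it held 0.625% to 0.715%. Whether another gene lies on that strand at *NDUFB11* was not examined, and the difference between the groups for *NDUFB11* was not tested. It was picked out because it was the one gene above a 2-fold ratio among the 14 of 84 OXPHOS genes with at least 10 such reads in every library.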

How the results depend on the processing

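The count of OXPHOS genes past the stricter threshold (1 in the report) was 7 with DESeq2, 5 with the GC and length offset, 9 with genes of at least 1 read kept, 3 with library size scaling only, 4 with upper quartile scaling, 9 at an adjusted p of 0.05 with the same fold, and 0 to 6 with a library left out. The count over all genes (795 in the report) was 1619 with DESeq2, 706 with the offset and 1804 with at least 1 read. It was 927 with library size scaling, 1020 with upper quartile scaling and 8 to 1120 with a library left out. The 19 genes past an adjusted p of 0.05 (9 higher, 10 lower) became 9 on both strands together (3 lower), and 2 to 29 with a library left out (1 to 9 higher, 1 to 20 lower). With at least 1 read 14 were higher, and 6 were lower with edgeR's own filter and 2 with library size scaling. None of the 19 changed sign under any alternative, and 19 passed again with DESeq2, 10 with the offset, 9 on both strands together and 2 to 19 with a library left out. The cause of these moves was not tested. The median log2 fold change of the OXPHOS genes ran from -0.14 (without sh-control replicate 1) to 0.06 (library size scaling). The SD between libraries of their median log2 CPM was 0.21. That is a spread of levels and not of a difference between groups, so it gives no measure for these moves. The same replicate numbers did not pair all of the libraries (correlation of deviations 0.50, 0.43 and -0.28 over 14356 genes). Sh-control replicate 3 deviated most like sh-*RREB1* replicate 2 (0.56). With the replicate number as a block, 9 OXPHOS genes passed the stricter threshold and 29 passed 0.05 (15 higher). With the block and the offset these counts were 4 and 31 (18 higher), and *RREB1* was at -0.37 (edgeR adjusted p = 0.011). Over all genes tested, 1685 passed the stricter threshold with the block and 872 with the block and the offset, beside 795 in the report.

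Some log2 fold changes changed sign. With the offset alone and with the block and offset, in that order, *ATP5C1* was at 0.019 and 0.014, *ATP5G3* at 0.22 and 0.20, *ATP5I* at -0.33 and -0.33, *COX6B1* at -0.077 and -0.059, *COX7C* at 0.043 and 0.057, *COX8A* at -0.16 and -0.13, *CYC1* at -0.29 and -0.26, *NDUFB10* at -0.42 and -0.42, *SDHB* at 0.020 and 0.021, *SDHD* at 0.12 and 0.092, and *COX7A2L* at 0.13 and 0.14. With the offset alone *NDUFB10* (edgeR adjusted p = 0.00290) and *ATP5I* (0.0288) passed as lower. With upper quartile scaling *COX8C* was at -0.063, *NDUFB6* at -0.072 and *SDHC* at -0.081. On both strands together *ATP5I* was at -0.14 and *COX7A2L* at 0.014. With edgeR's own filter *SDHD* was at 0.013 and *COX7A2L* at 0.057, and with library size scaling they were at 0.032 and 0.080. *COX7A2L* was at 0.00010 in the merged table and at 0.0024 with the block. With a library left out, *ATP5G2* ran from -0.15 to 0.29, *COX6B1* from -0.17 to 0.22, *COX8C* from -0.22 to 0.25, *NDUFA7* from -0.47 to 0.072, *NDUFB6* from -0.10 to 0.13, *SDHA* from -0.023 to 0.29, *SDHC* from -0.091 to 0.11, *SDHD* from -0.17 to 0.15 and *COX7A2L* from -0.13 to 0.045. Depth was least for *COX6B2*, with 10 reads in all, whose 95% interval of the log2 fold change ran from -0.89 to 3.79.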
